A study of Mus musculus with 12 samples.

Results

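Collagen and laminin transcripts were followed in dorsal root ganglia, the ganglia that hold the cell bodies of sensory neurons, after a spinal cord injury. The genes were chosen by symbol: every protein-coding mouse gene named as a collagen alpha chain (Col, a number, a, a number) or as a laminin alpha, beta or gamma chain (Lama, Lamb or Lamc and a number), provided that its mean over the 6 libraries of a table was at least 1 FPKM. FPKM is a count of fragments scaled for transcript length and library size. Of 55 genes with such a symbol in the GENCODE M21 annotation, 26 were members in the AAV table of 13178 genes and 28 were members in the ribose table of 21650 genes, of which 13804 reached that mean. Both tables shared 25 members, and 29 genes were a member in at least 1 of them. The AAV table listed no collagen or laminin under a mean of 1 FPKM, whereas the ribose table listed 53 and so held 25 under it. Among the members reported, nearest to the threshold in the ribose table were Col2a1 at 1.09 and Lama1 at 1.25 FPKM inside it, and Col27a1 at 0.968, Col7a1 at 0.872 and Col6a1 at 0.787 FPKM outside it.

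All 12 libraries came from L4-6 sciatic ganglia of C57BL/6J mice aged 8 weeks, taken 72 h after the injury, which every group had received, controls included. The AAV experiment used a virus vector (adeno-associated virus) delivered 4 weeks earlier by way of the sciatic nerve, with GFP, a fluorescent control protein (AAV-GFP, 3 libraries), or with Tkt (AAV-TKT, 3 libraries). Tkt encodes transketolase, an enzyme of the non-oxidative pentose phosphate pathway. In the other experiment animals received 10% ribose, a pentose sugar that feeds that pathway (Ribose, 3 libraries), or vehicle (Vehicle, 3 libraries). The sources used here give neither the serotype and promoter of the virus nor the route of ribose or the animals behind a library. Replicates are not said to be separate animals, so p-values measure the spread between these libraries only, which may be technical.

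Collagens are trimers of alpha chains that wind into a triple helix. Fibrillar collagens are trimmed outside the cell and assemble into the fibrils of the epineurium and endoneurium, while type IV collagen forms a sheet that, joined to laminin trimers of 1 alpha, 1 beta and 1 gamma chain, makes the basement membrane around each Schwann cell, each satellite glial cell envelope and each vessel. In a sensory ganglion these chains are made mainly by fibroblasts, Schwann cells, satellite glia and vessel cells rather than by neurons. Laminin on the Schwann cell surface is known for its part in myelination and in the regrowth of axons.

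The libraries were labelled as neurons, and all 12 of 12 neuron markers were tested, with summed levels of 7199 to 9495 FPKM in the AAV experiment and 7519 to 8849 FPKM in the ribose experiment. Markers of other cells were present too: 9 of 10 satellite glia markers, 11 of 12 Schwann cell markers and 6 of 12 fibroblast markers were tested in the AAV table, and 10, 11 and 8 of them in the ribose table, none at 0 in any library. Tkt measured 102.1 ± 4.18 FPKM in AAV-GFP and 248 ± 21.9 FPKM in AAV-TKT (mean ± SD, n = 3 each). Library totals lay between 413635 and 456084 FPKM in the AAV table and between 510551 and 551370 FPKM in the ribose table. Depth is unknown for the AAV libraries. In the ribose experiment the size of the smallest step between values gave a depth relative to Vehicle replicate 3. It was 0.758 and 0.925 for Vehicle replicates 1 and 2, and 0.565, 0.672 and 0.654 for Ribose replicates 1 to 3. Genes at 0 were 11.0%, 7.96% and 5.76% in Vehicle and 13.9%, 11.5% and 14.5% in Ribose. Every Ribose library was thus shallower than every Vehicle library, and for low chains depth and treatment cannot be told apart. AAV-TKT replicate 2, Ribose replicate 2 and, less so, Vehicle replicate 2 stood apart in the genes described here, as given below, and the counts of negative members and the class medians are given with and without them. In RNA from whole ganglia, fewer cells of a type and less RNA per cell cannot be told apart.

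No collagen or laminin passed the test in either comparison (limma on log2(FPKM + 1), Benjamini-Hochberg adjusted p under 0.05 over all genes tested). In AAV-TKT against AAV-GFP 0 of 26 passed, against 0.0152% of all 13178 genes, and 1 of 26 had an unadjusted p under 0.05, against 10.6% of all genes. In Ribose against Vehicle 0 of 28 passed, against 0.00724% of all 13804 genes, and 0 of 28 had an unadjusted p under 0.05, against 4.79%. The genes that did pass were Tkt, with a log2 change of 1.27, and Gm24895 in the AAV experiment, and Gm15387 in the ribose experiment. What the data do show is which chains the injured ganglion held, how they varied between libraries, and with which other transcripts that variation went.

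The ganglia held a short list of abundant chains. Col28a1, a von Willebrand factor domain collagen known from the peripheral nervous system, was the highest in the AAV table with a mean of 10.7 FPKM, followed by the laminin beta chain Lamb1 at 9.52, the type I chain Col1a2 at 8.26, the fibrillar chain Col5a3 at 6.49 and the fibril-associated chain Col16a1 at 5.98 FPKM. These 5 genes made up 45.3% of the 90.4 FPKM summed over all 26 members. In the ribose table Col1a2 led with 10.5 FPKM, ahead of Lamb1 at 10.3, Col28a1 at 8.64, the type IV chain Col4a1 at 6.75 and the laminin gamma chain Lamc1 at 5.92 FPKM, together 41.7% of 101.1 FPKM. Of these, Col28a1 had a higher mean than Lamb1 in 3 of the 4 groups. Col28a1 and Lamb1 measured 11.9 ± 0.712 and 10.6 ± 0.518 FPKM (SD, n = 3) in AAV-GFP, further apart than either SD. In AAV-TKT they measured 9.56 ± 3.06 and 8.44 ± 2.97 FPKM and in Vehicle 11.4 ± 6.62 and 11.3 ± 0.776 FPKM, closer than the spread between libraries. In Ribose the order was turned, with 5.86 ± 3.87 and 9.28 ± 1.46 FPKM, a difference under the SD of Col28a1. Lama5, Col5a1 and Col6a1 were listed under 1 FPKM in the ribose table and were not members.

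RefSeq start regions (GRCm38.p6) were matched for 20 of the 29 members, in 22 windows of 300 bases. Promoter sequence is shown for Col28a1, the most abundant member in the AAV table, and for Col3a1, the member with the smallest p in that comparison, as the 250 bases before the annotated start, in which no annotated exon lies. Capitals mark matches, on either strand, to CCAAT (the CCAAT box), GGGCGG (the GC box), TATAAA (the TATA box) and ACAAAG or ACAATG (the core bound by SOX factors); no match overlaps another. Col28a1 is read from the minus strand of chr6:8192618-8192867 and Col3a1 from the plus strand of chr1:45311288-45311537.
Col28a1: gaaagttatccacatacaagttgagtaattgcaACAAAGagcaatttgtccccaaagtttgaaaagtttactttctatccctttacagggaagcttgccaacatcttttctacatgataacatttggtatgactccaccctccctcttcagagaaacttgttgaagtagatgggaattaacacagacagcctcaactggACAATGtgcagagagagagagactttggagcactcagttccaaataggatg
Col3a1: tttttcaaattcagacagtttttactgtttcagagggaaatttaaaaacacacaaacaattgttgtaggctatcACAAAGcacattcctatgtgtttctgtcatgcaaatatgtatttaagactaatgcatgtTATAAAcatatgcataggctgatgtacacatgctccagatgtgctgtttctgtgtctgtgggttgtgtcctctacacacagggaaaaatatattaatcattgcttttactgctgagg
Col28a1 holds 2 SOX matches and Col3a1 holds 1 together with 1 TATA match. Of the same 250 bases before the start in 32851 windows, 25.2% hold a SOX match, 12.4% a TATA match, 32.7% a GC box and 33.8% a CCAAT box. Among the 22 member windows the counts were 2, 1, 12 and 9. These matches are letters in a window and were not linked to any measured level.

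The chains Col4a1 and Col4a2, which together form the common type IV trimer, start head to head. Col4a1 runs on the minus strand of chr8:11198423-11312826 and Col4a2 on the plus strand of chr8:11312805-11449287, so that 22 bases are shared by both first exons. The 30 bases around both start sites, chr8:11312801-11312830 on the plus strand, are shown because the reads of the 2 genes meet there. The capitals mark a GC box, which 5.77% of all 32851 windows hold in the 30 bases at that distance from the start.
Col4a1 and Col4a2: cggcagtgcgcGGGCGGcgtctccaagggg
Those 22 bases are 0.295% of the exonic length of Col4a1 and 0.332% of that of Col4a2. The library kit keeps strand, but the sources used here do not say whether counting used it. An antisense gene, Gm48084, overlaps 3.86% of the exonic length of Lama2, and reads of such pairs cannot be told apart without strand.

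In AAV-TKT against AAV-GFP the log2 change was negative for 23 of 26 members, against 46.3% of all genes, and its median was -0.21, against 0.01 over all genes tested. The range was -0.76 to 0.12. No member had every AAV-TKT library below every AAV-GFP library, an ordering seen in 7.2% of all genes, nor every one above, seen in 11.3%. AAV-TKT replicate 2 was the lowest of the 6 libraries for 20 of the 26 members (76.9%), and for 17.2% of all genes. Without that library 15 of 26 members were negative and the median was -0.06. Without AAV-GFP replicate 3 the figures were 17 of 24 and -0.10, and without AAV-TKT replicate 1 they were 24 of 25 and -0.38.

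**Figure D1:**
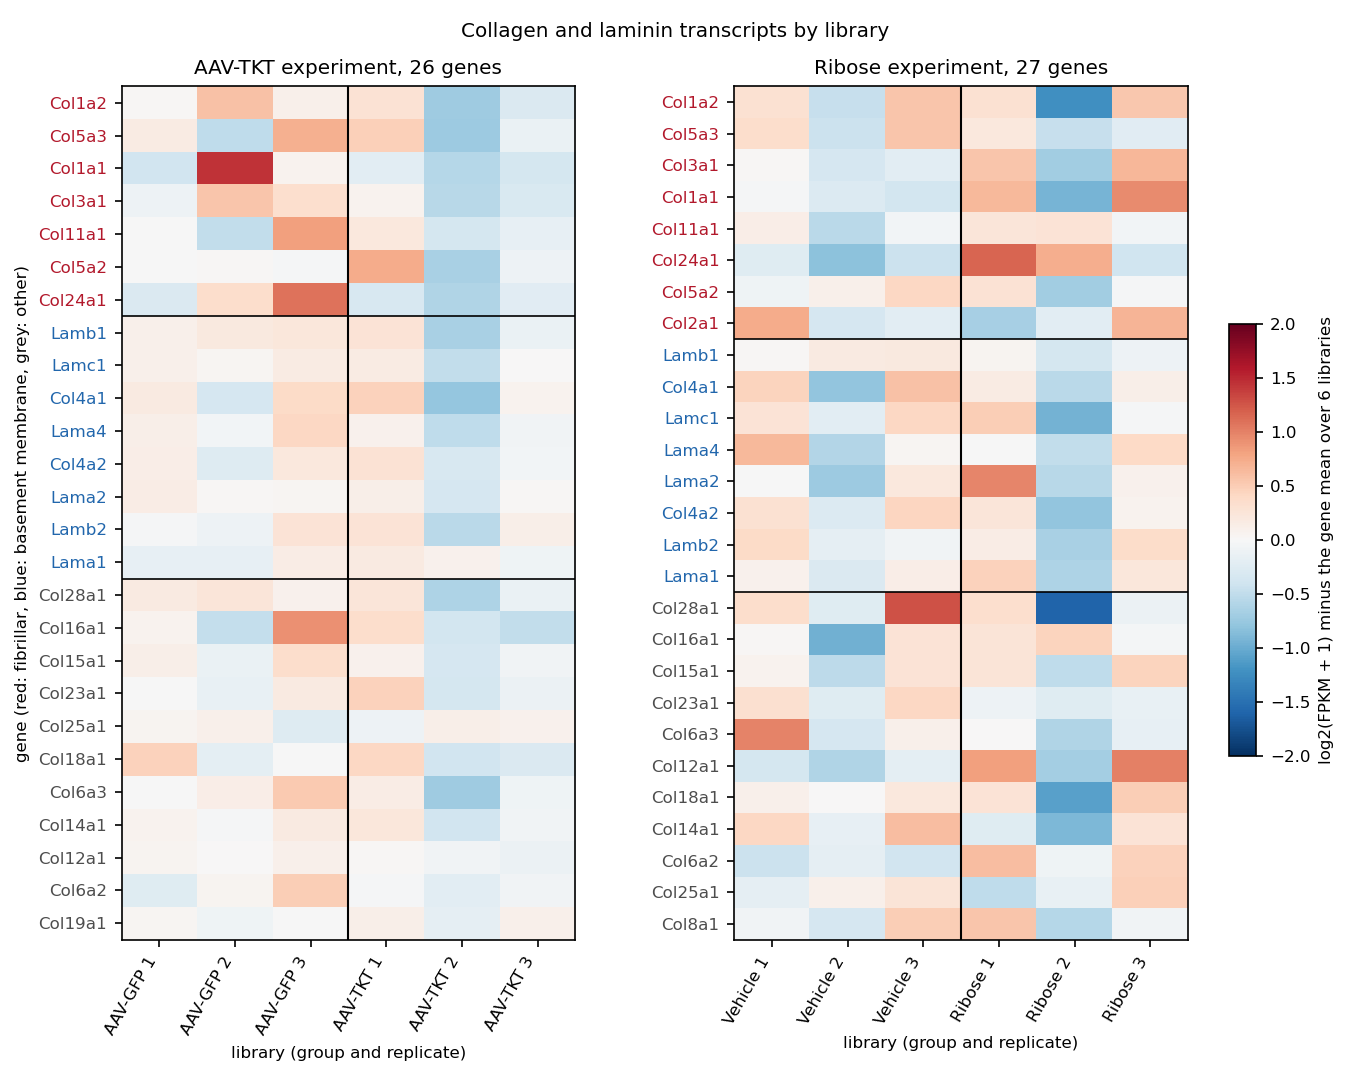
Each cell is the log2(FPKM + 1) of a member in a library (columns, grouped by treatment) minus the mean of that gene over its 6 libraries, for 26 members of the AAV experiment (left) and 27 of the 28 of the ribose experiment (right), sorted by class and level. The blue column of AAV-TKT replicate 2 holds the lowest value for 20 of 26 members, and that of Ribose replicate 2 for 16 of 28.

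Of the fibrillar collagens, all 7 members of the AAV table had a negative log2 change, with a median of -0.47. Col5a2 was at -0.00 with group means of 1.52 and 1.72 FPKM. Col1a1, which supplies 2 of the 3 chains of type I collagen, measured 1.64, 8.36 and 2.65 FPKM in AAV-GFP replicates 1 to 3 and 2.00, 1.32 and 1.71 FPKM in AAV-TKT replicates 1 to 3. One control library, AAV-GFP replicate 2, lay far above the other 5, and the groups overlapped. The log2 change was -0.75 (SE 0.422, adjusted p = 0.541). Col1a2, its partner chain, measured 8.02, 12.4 and 8.59 FPKM in AAV-GFP and 9.88, 4.46 and 6.25 FPKM in AAV-TKT. The same control library was again the highest and AAV-TKT replicate 2 the lowest, with overlap between the groups and a log2 change of -0.47 (SE 0.259, adjusted p = 0.527).

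Col3a1, the type III chain of elastic and healing tissue, measured 2.45, 4.48 and 3.68 FPKM in AAV-GFP and 2.91, 1.54 and 2.00 FPKM in AAV-TKT. AAV-TKT replicates 2 and 3 were below every control, while AAV-TKT replicate 1 was above AAV-GFP replicate 1. Its log2 change of -0.52 (SE 0.218) had the smallest p of the 26 members, 0.0452, and an adjusted p of 0.468. Col24a1, a minor fibrillar chain, measured 0.725, 1.69 and 3.49 FPKM in AAV-GFP and 0.695, 0.395 and 0.805 FPKM in AAV-TKT, so that only AAV-GFP replicates 2 and 3 stood above 1 FPKM. It entered the table through its control mean of 1.97 FPKM, since its AAV-TKT mean was 0.632 FPKM, and its log2 change was -0.76 (SE 0.327, adjusted p = 0.472). Col5a3, a type V chain that regulates fibril growth, measured 6.87, 3.98 and 10.6 FPKM in AAV-GFP and 8.85, 3.27 and 5.42 FPKM in AAV-TKT, with complete mixing of the groups and a log2 change of -0.25 (adjusted p = 0.822). Col11a1 ranged from 1.41 to 4.98 FPKM in AAV-GFP and from 1.64 to 2.90 FPKM in AAV-TKT.

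AAV-GFP replicate 2, high in Col1a1, Col1a2 and Col3a1, was also the library with the highest summed level of fibroblast markers, although those markers did not move as one. Dcn, the proteoglycan decorin, measured 13.0, 27.6 and 16.8 FPKM in AAV-GFP and 13.3, 15.96 and 17.0 FPKM in AAV-TKT. Apod, an apolipoprotein of endoneurial fibroblasts, measured 27.4, 60.9 and 30.4 FPKM and 23.0, 17.1 and 30.4 FPKM. These and Lum were highest in AAV-GFP replicate 2, whereas Gsn and Cygb were at their lowest of the 6 libraries there, at 30.9 and 14.5 FPKM, and Cd34 was highest elsewhere. Over the 6 fibroblast markers tested the summed level was 109 to 152 FPKM in AAV-GFP and 99.1 to 113 FPKM in AAV-TKT. The 6 not listed in that table were Pdgfra, Dpt, Pi16, Mfap5, Clec3b and Osr2. Their part in the fibrillar collagen values was not tested. Without AAV-GFP replicate 2 the fibrillar median was -0.37, without AAV-GFP replicate 3 it was -0.25 and without AAV-TKT replicate 2 it was -0.24.

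Of the 8 basement membrane chains in the AAV table, 7 had a negative log2 change, with a median of -0.15 and a range of -0.34 to 0.12. Without AAV-TKT replicate 2 that median was 0.04, and without AAV-TKT replicate 1 it was -0.34. Lamb1, the beta chain shared by most laminins of nerve and vessel, measured 10.0, 10.8 and 11.0 FPKM in AAV-GFP and 11.5, 5.53 and 8.33 FPKM in AAV-TKT. The controls lay within 1 FPKM of each other, AAV-TKT replicate 1 was above them all and the other two AAV-TKT libraries below, giving a log2 change of -0.34 (SE 0.211, adjusted p = 0.571). Lamc1, the gamma chain that nearly every laminin trimer needs, measured 6.06, 5.80 and 6.40 FPKM in AAV-GFP and 6.41, 3.69 and 5.66 FPKM in AAV-TKT. Again AAV-TKT replicate 1 topped the controls by a small margin and AAV-TKT replicate 2 was far the lowest, with a log2 change of -0.21 (adjusted p = 0.654).

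The laminin alpha chains carry the receptor-binding end of the trimer. Lama4, a chain of vessel and Schwann cell laminin, measured 4.18, 3.60 and 5.37 FPKM in AAV-GFP and 4.06, 2.33 and 3.54 FPKM in AAV-TKT, with overlap and a log2 change of -0.33 (SE 0.187, adjusted p = 0.546). Lama2, the main alpha chain of the Schwann cell basement membrane, measured 3.36, 2.99 and 3.02 FPKM and 3.28, 2.12 and 2.98 FPKM, a log2 change of -0.13 (adjusted p = 0.731). For both, AAV-TKT replicate 2 was the lowest of the 6 libraries. Lama1 measured 0.805, 0.817 and 1.26 FPKM in AAV-GFP and 1.31, 1.15 and 0.911 FPKM in AAV-TKT and was the only basement membrane chain with a positive log2 change, 0.12 (adjusted p = 0.795). Its AAV-GFP mean of 0.961 FPKM was under the level threshold, which it reached through its AAV-TKT mean of 1.12 FPKM only. Lamb2, the beta chain of the synaptic and muscle basement membrane, measured 1.63, 1.48 and 2.22 FPKM and 2.23, 0.847 and 1.91 FPKM, with overlap.

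Col4a1 measured 5.27, 3.35 and 6.21 FPKM in AAV-GFP and 6.60, 2.21 and 4.81 FPKM in AAV-TKT. Col4a2 measured 3.84, 2.66 and 4.10 FPKM and 4.38, 2.52 and 3.21 FPKM. The partner chains ranked AAV-TKT replicate 1 highest and AAV-TKT replicate 2 lowest alike, and their log2 changes were -0.16 and -0.06 (adjusted p = 0.878 and 0.926). In AAV-GFP the ratio of Col4a1 to Col4a2 was 1.26 to 1.51, and in AAV-TKT it was 0.879 to 1.51.

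**Figure D2:**
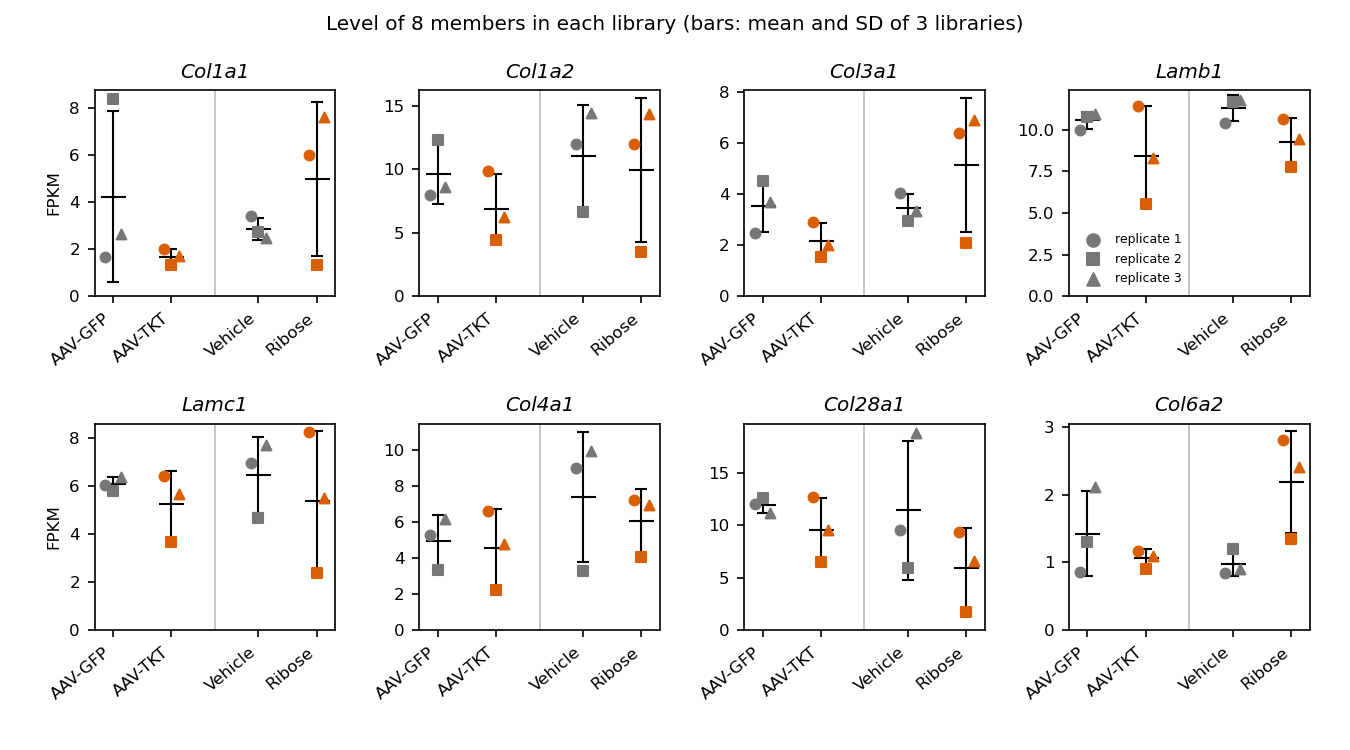
FPKM (vertical axis, from 0) of 8 members in each library, with AAV-GFP and AAV-TKT left and Vehicle and Ribose right of the line in each panel, symbols for the replicate number, and bars for the mean and SD of 3 libraries. Replicate 2 of AAV-TKT and of Ribose is the lowest point of its group in all 8 panels, and Col6a2 in the ribose experiment is the only case shown in which the groups do not overlap.

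Among the other collagens, 9 of 11 members of the AAV table were negative, with a median of -0.17. That median was -0.10 without AAV-TKT replicate 2 and without AAV-GFP replicate 3, and -0.30 without AAV-TKT replicate 1. Col28a1 measured 12.0, 12.6 and 11.1 FPKM in AAV-GFP and 12.6, 6.51 and 9.52 FPKM in AAV-TKT, with AAV-TKT replicate 1 the highest and AAV-TKT replicate 2 the lowest of all 6. The log2 change was -0.33 (SE 0.198, adjusted p = 0.559). Col28a1 and Lamb1, genes of different classes, had a ratio between 1.01 and 1.20 in all 6 AAV libraries, but between 0.220 and 1.59 over the ribose libraries. Col16a1, a fibril-associated chain, measured 5.85, 3.69 and 11.4 FPKM in AAV-GFP and 7.29, 4.08 and 3.62 FPKM in AAV-TKT. A single library, AAV-GFP replicate 3, was high, as it was for Col5a3, Col11a1 and Col24a1, and without it the log2 change of Col16a1 went from -0.34 to 0.03.

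The type VI chains, which form beaded microfibrils next to the basement membrane, were low. Col6a3 measured 1.49, 1.75 and 2.59 FPKM in AAV-GFP and 1.79, 0.536 and 1.36 FPKM in AAV-TKT, a log2 change of -0.43 (SE 0.248, adjusted p = 0.550). Col6a2 measured 0.862, 1.31 and 2.11 FPKM and 1.17, 0.909 and 1.10 FPKM, a log2 change of -0.21 (adjusted p = 0.712). Both were highest in AAV-GFP replicate 3, and the groups overlapped.

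Col15a1, a basement membrane zone collagen, measured 2.50, 1.93 and 3.11 FPKM in AAV-GFP and 2.41, 1.56 and 2.05 FPKM in AAV-TKT. The transmembrane collagens Col23a1 and Col25a1 measured 2.05, 1.76 and 2.48 against 3.20, 1.39 and 1.83 FPKM, and 2.11, 2.21 and 1.51 against 1.80, 2.26 and 2.17 FPKM. Col25a1, a collagen known from neurons, was the only member that was highest in AAV-TKT replicate 2, with a log2 change of 0.07. Col19a1 measured 1.23, 1.05 and 1.15 FPKM in AAV-GFP and 1.36, 0.907 and 1.33 FPKM in AAV-TKT, a log2 change of 0.03. Col14a1 and Col12a1, which coat collagen fibrils, ranged from 0.765 to 1.71 FPKM and from 1.12 to 1.47 FPKM over the 6 libraries, with log2 changes of -0.15 and -0.12.

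**Figure D3:**
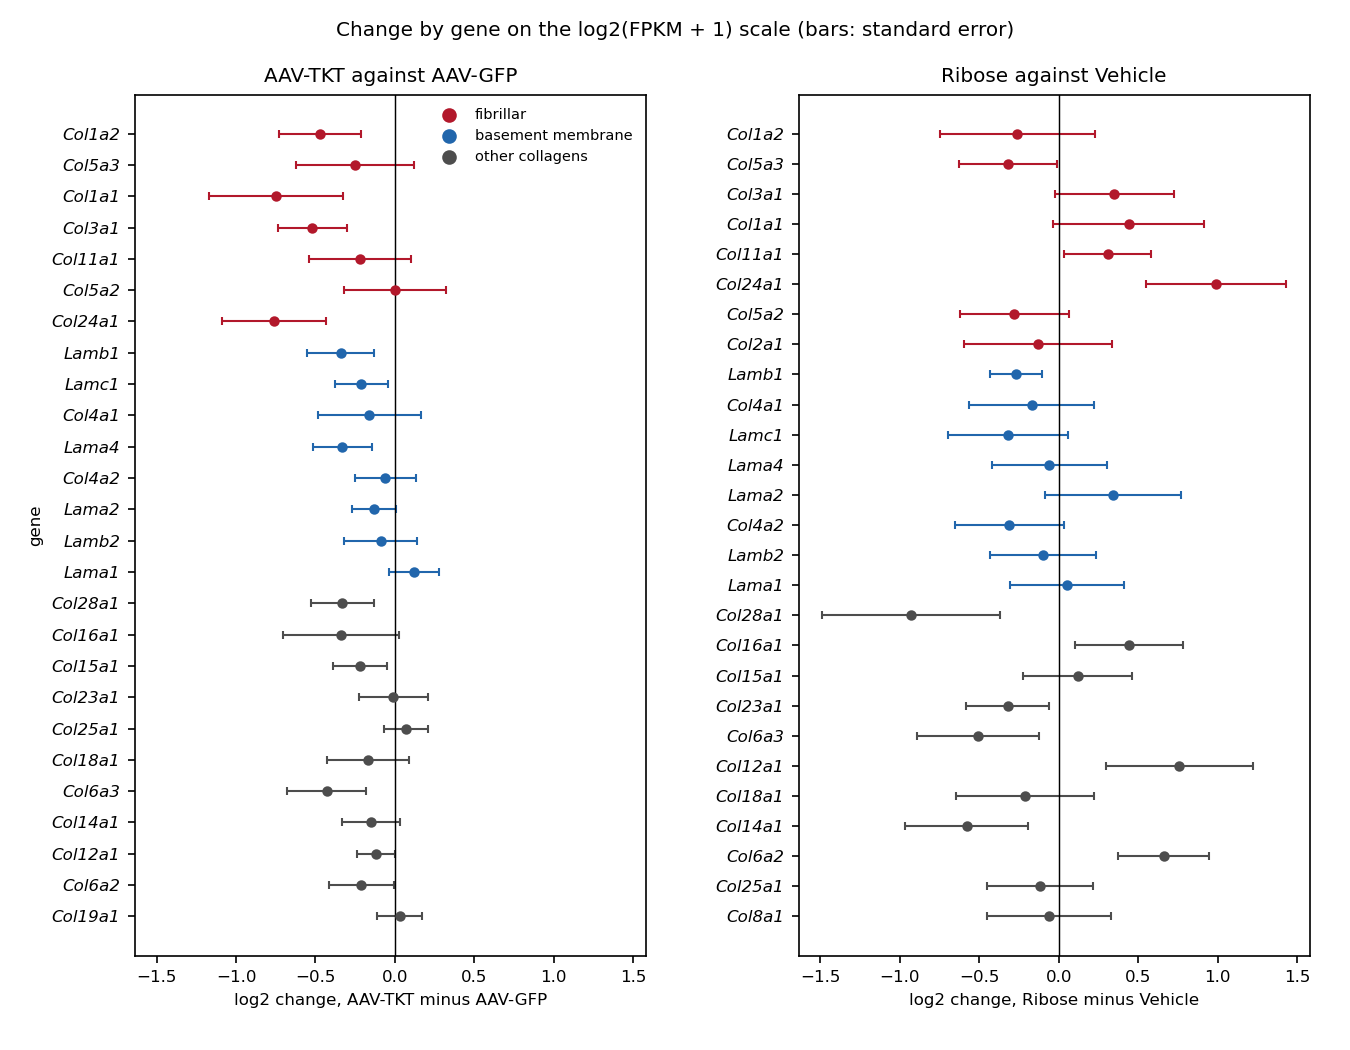
Log2 change on the log2(FPKM + 1) scale (horizontal axis) with its standard error for 26 members in the AAV and 27 of the 28 in the ribose experiment, AAV-TKT minus AAV-GFP on the left and Ribose minus Vehicle on the right, coloured by class. Changes in the AAV experiment run from -0.76 to 0.12 and lie mostly left of 0, and those in the ribose experiment run from -0.93 to 0.99 on both sides of it.

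In Ribose against Vehicle, 18 of 28 members had a negative log2 change, against 55.2% of all genes, with a median of -0.11, against -0.02 over all genes tested. The smallest adjusted p was 0.9998. Ribose replicate 2 was the lowest library for 16 of 28 members (57.1%), and for 17.7% of all genes. Vehicle replicate 2 was the lowest for another 9 (32.1%), and for 15.2% of all genes. Without Ribose replicate 2, 9 of 28 members were negative and the median was 0.19, with a smallest adjusted p of 0.401. Without Vehicle replicate 2, 20 of 28 were negative and the median was -0.24. Without both of those libraries, 16 of 28 were negative and the median was -0.03. Leaving out Vehicle replicate 1 gave 13 of 26 and -0.04, Vehicle replicate 3 gave 15 of 28 and -0.03, Ribose replicate 1 gave 17 of 27 and -0.19, and Ribose replicate 3 gave 18 of 26 and -0.28.

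The fibrillar collagens split evenly in this experiment, 4 of 8 positive and 4 negative, with a median of 0.09 that was -0.01 after quantile normalization. Leaving out 1 library moved that median from -0.09, without Vehicle replicate 2, to 0.45, without Vehicle replicate 1, and it was 0.27 without Ribose replicate 2. Col1a1 measured 3.39, 2.72 and 2.49 FPKM in Vehicle and 6.00, 1.34 and 7.63 FPKM in Ribose. Ribose replicates 1 and 3 were above every control and Ribose replicate 2 below every control, so that the SD of the treated group, 3.26 FPKM, was larger than the difference of the means, with a log2 change of 0.44 (SE 0.474, adjusted p = 0.9998). Col3a1 measured 4.05, 2.95 and 3.32 FPKM in Vehicle and 6.37, 2.10 and 6.89 FPKM in Ribose, the same split of the treated libraries, with a log2 change of 0.35 (SE 0.373). Col1a2 measured 12.0, 6.65 and 14.5 FPKM in Vehicle and 12.0, 3.50 and 14.4 FPKM in Ribose. Here replicates 1 and 3 of both groups were alike and replicate 2 of both was low, and the log2 change was -0.26 (SE 0.487).

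Col24a1 measured 0.839, 0.237 and 0.623 FPKM in Vehicle and 3.86, 2.62 and 0.644 FPKM in Ribose. It had the largest positive log2 change of the 28 members, 0.99 (SE 0.443, adjusted p = 0.9998), and it passed the level threshold through its Ribose mean of 2.37 FPKM only. Ribose replicate 3 lay within the controls. Col5a3 measured 6.63, 3.45 and 7.82 FPKM in Vehicle and 5.91, 3.37 and 4.11 FPKM in Ribose, with overlap and a log2 change of -0.32.

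Of the 9 basement membrane chains, 7 were negative, with a median of -0.10. That median was 0.12 without Ribose replicate 2, 0.05 without Vehicle replicate 1, -0.24 without Vehicle replicate 2 and -0.28 without Ribose replicate 3. Lamb1 measured 10.4, 11.7 and 11.8 FPKM in Vehicle and 10.7, 7.74 and 9.46 FPKM in Ribose, the tightest spread among the 5 most abundant members, and its log2 change was -0.27 (SE 0.164, adjusted p = 0.9998). Ribose replicate 1 lay just above Vehicle replicate 1, so the groups overlapped. Lamc1 measured 6.95, 4.68 and 7.73 FPKM in Vehicle and 8.25, 2.40 and 5.49 FPKM in Ribose, a log2 change of -0.32. Col4a1 measured 9.01, 3.26 and 9.95 FPKM in Vehicle and 7.23, 4.04 and 6.98 FPKM in Ribose, and Col4a2 measured 3.78, 2.21 and 4.21 FPKM and 3.58, 1.23 and 3.08 FPKM. For these 3 genes replicate 2 was the lowest library within each group.

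Lama4 measured 8.97, 3.22 and 5.51 FPKM in Vehicle and 5.36, 3.54 and 7.39 FPKM in Ribose. Lama2 measured 3.52, 1.75 and 4.24 FPKM in Vehicle and 7.90, 2.09 and 3.83 FPKM in Ribose, with a log2 change of 0.34 that Ribose replicate 1 carried: without it the change was -0.06. Lama1 measured 1.30, 0.778 and 1.40 FPKM and 1.99, 0.429 and 1.57 FPKM, and Lamb2 measured 3.18, 1.83 and 2.03 FPKM and 2.53, 1.03 and 3.10 FPKM. All 4 overlapped between the groups, with log2 changes of -0.06, 0.34, 0.05 and -0.10.

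Among the other collagens, 7 of 11 were negative, with a median of -0.12. That median was 0.22 without Ribose replicate 2, -0.02 without Vehicle replicate 3, -0.24 without Vehicle replicate 2, and -0.35 and -0.33 without Ribose replicates 1 and 3. Col28a1 measured 9.52, 5.95 and 18.8 FPKM in Vehicle and 9.36, 1.70 and 6.53 FPKM in Ribose. In FPKM the values spanned the widest range of any member, Vehicle replicate 3 at the top and Ribose replicate 2 at the bottom, and the log2 change was -0.93 (SE 0.560, adjusted p = 0.9998). Col6a2 measured 0.846, 1.19 and 0.900 FPKM in Vehicle and 2.80, 1.35 and 2.41 FPKM in Ribose. It was the only member in which every treated library was above every control, an ordering seen in 4.28% of all genes, and 0 members had the opposite one, seen in 5.35%. Its log2 change was 0.66 (SE 0.287, adjusted p = 0.9998), its Vehicle mean of 0.980 FPKM was under the threshold, and an exact permutation test of 3 against 3 libraries cannot give less than p = 0.1.

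Col6a3, the partner of Col6a2 in type VI collagen, had the opposite sign. It measured 5.00, 1.41 and 2.23 FPKM in Vehicle and 2.04, 0.987 and 1.70 FPKM in Ribose, a log2 change of -0.51 (SE 0.383). Col12a1 measured 1.20, 0.843 and 1.43 FPKM in Vehicle and 3.95, 0.739 and 4.60 FPKM in Ribose, with the same high pair of libraries, replicates 1 and 3, as Col1a1 and Col3a1, and a log2 change of 0.76 (SE 0.462). Col16a1 measured 5.30, 2.16 and 6.49 FPKM in Vehicle and 6.39, 7.43 and 5.01 FPKM in Ribose, and with Col11a1 was 1 of 2 members highest in Ribose replicate 2. Col14a1 measured 2.26, 1.18 and 2.75 FPKM and 1.07, 0.311 and 1.95 FPKM, a log2 change of -0.58 (SE 0.385). Col15a1, Col23a1 and Col25a1 ranged over the 6 libraries from 1.56 to 4.01, from 1.70 to 3.28 and from 0.692 to 2.37 FPKM, with log2 changes of 0.12, -0.32 and -0.12. Each of them overlapped between the groups.

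Ratios within a library remove a factor that is common to both chains. Of 9 pairs compared, picked with the values known, 0 in the AAV experiment and 3 in the ribose experiment had groups that did not overlap. The same held for 17.2% and 9.59% of all pairs of genes tested that were above 0 in every library. The ratio of Col3a1 to Col1a2 was 0.336, 0.444 and 0.229 in Vehicle and 0.531, 0.600 and 0.479 in Ribose. The ratio of Col6a3 to Col6a2 was 5.91, 1.18 and 2.48 in Vehicle and 0.729, 0.730 and 0.703 in Ribose. The ratio of Col28a1 to Col1a2 was 0.791, 0.896 and 1.30 in Vehicle and 0.780, 0.486 and 0.455 in Ribose. With 3 libraries a group the smallest exact permutation p is 0.1, so no ratio could pass a threshold of 0.05.

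The libraries low in collagens and laminins also had low median scores for glial markers, though not for every such marker, and other lists were low in some of them too. For each gene list the median over genes of log2(FPKM + 1) minus the gene mean over the 6 libraries was taken per library. In AAV-TKT replicate 2 this score was -0.60 for fibrillar, -0.50 for basement membrane and -0.36 for other collagens, beside -0.67 for 9 satellite glia markers, -0.33 for 11 Schwann cell markers and 0.17 for 12 neuron markers. There the neutrophil, red cell and macrophage scores were -0.82, -0.96 and -0.22. These 3 lists were low in every AAV-TKT library, at -1.21 to -0.82, -0.96 to -0.66 and -0.57 to -0.22. Each holds genes that reached the level threshold through AAV-GFP only, as given below. In AAV-TKT replicate 2 the scores of mural cells, perineurial cells, endothelial cells and fibroblasts lay between -0.23 and -0.09. In Ribose replicate 2 it was -0.57, -0.55 and -0.58, beside -1.38 for 10 satellite glia markers, -0.60 for Schwann cell markers and 0.01 for neuron markers. Nearly every non-neuronal list was low in that library: red cell -2.35, neutrophil -1.73, macrophage -1.0, endothelial -0.67, perineurial -0.39, mural -0.35 and fibroblast -0.34. In Vehicle replicate 2 it was -0.38, -0.30 and -0.25, beside -0.31, -0.27 and -0.02. Other lists were about as low there as the glial ones: perineurial -0.31, endothelial -0.29, cartilage -0.27, fibroblast -0.24 and osteoblast -0.24. The mural score was -0.03, and the neutrophil, red cell and macrophage scores of that library were high, at 1.47, 1.08 and 0.66. Fabp7, a satellite glia marker, measured 245, 112 and 323 FPKM in Vehicle and 185, 33.4 and 151 FPKM in Ribose, lowest in replicate 2 of each group. Gfra3, on the same list, went the other way, with 24.9, 60.6 and 15.0 FPKM in Vehicle and 33.5, 55.3 and 28.0 FPKM in Ribose. Scn10a, on the neuron list, had the same order of libraries within each group as Gfra3, and Nefh, also on the neuron list, the opposite one. Whether Gfra3 came from glia or from neurons here was not tested.

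**Figure D4:**
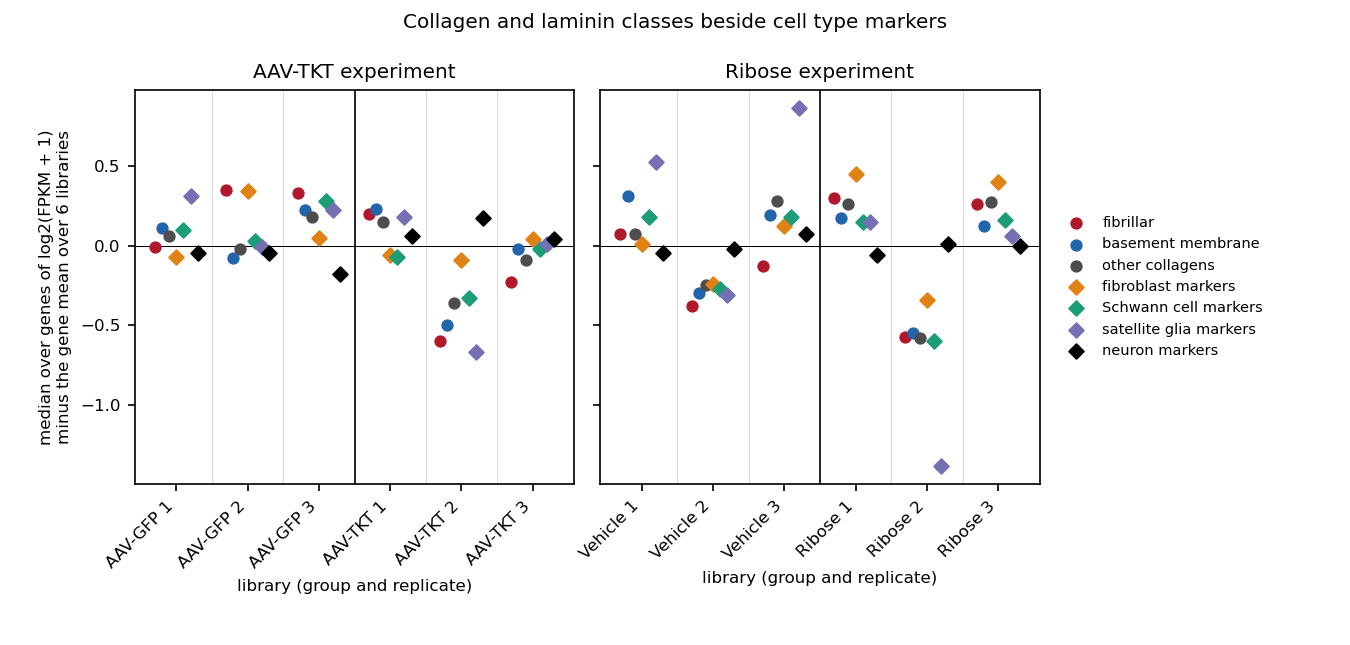
Score of each gene list in each library, the median over its genes of log2(FPKM + 1) minus the gene mean over 6 libraries, with circles for the 3 collagen and laminin classes and diamonds for cell type markers. Circles and satellite glia and Schwann cell diamonds are low together in AAV-TKT replicate 2 and in replicate 2 of Vehicle and Ribose, where the neuron diamonds lie at 0.17, -0.02 and 0.01. In the same libraries the fibroblast diamonds lie at -0.09, -0.24 and -0.34, so that low values are not particular to glia.

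Over whole groups, the summed satellite glia markers were 355 to 464 FPKM in AAV-GFP and 273 to 411 FPKM in AAV-TKT, and 385 to 730 FPKM in Vehicle and 240 to 509 FPKM in Ribose. The summed Schwann cell markers were 361 to 394 FPKM in AAV-GFP and 309 to 341 FPKM in AAV-TKT, and 447 to 499 FPKM in Vehicle and 396 to 415 FPKM in Ribose, without overlap in either experiment. Pmp22, a myelin protein that was highest in Vehicle replicate 2, held 69.6% to 81.5% of that sum in the AAV and 67.7% to 86.6% in the ribose experiment. By the median score the AAV groups did not overlap, 0.03 to 0.28 against -0.33 to -0.02, and the ribose groups did, -0.27 to 0.18 in Vehicle against -0.60 to 0.16 in Ribose. Singly, 6 of 11 Schwann cell markers had every AAV-TKT library below every AAV-GFP library, against 7.2% of all genes, and 0 of 11 were separated in either direction in the ribose experiment. The summed neuron markers were higher in AAV-TKT without overlap, 8560 to 9495 FPKM against 7199 to 8108 FPKM in AAV-GFP, and in the ribose experiment they overlapped. By gene, 6 of 12 neuron markers had every AAV-TKT library above every AAV-GFP library, against 11.3% of all genes. Syt1 had the opposite order, seen in 7.2% of all genes, and 4 of 12 had a negative log2 change. Fibroblast markers were 105.2 to 123 FPKM in Vehicle and 78.7 to 153 FPKM in Ribose, with scores of 0.45, -0.34 and 0.40 in Ribose replicates 1 to 3, the order in which Col1a1, Col3a1 and Col12a1 were high, low and high. That order was not particular to fibroblasts. Within Ribose the red cell, neutrophil, macrophage, Schwann cell and satellite glia scores were also lowest in replicate 2. On the fibroblast list Cd34 was highest there, and Mfap5 and Osr2 reached the level threshold through Ribose only. Neutrophil markers, tested for 10 of 11 genes, were 97.2 to 263 FPKM in AAV-GFP and 19.9 to 32.4 FPKM in AAV-TKT, and red cell markers, tested for 6 of 9 genes, were 113 to 476 FPKM and 71.9 to 94.4 FPKM. Macrophage markers, tested for 7 of 12 genes, were 37.4 to 51.4 FPKM in AAV-GFP and 13.7 to 19.2 FPKM in AAV-TKT. Lyz2 held 51.0% to 71.7% of that sum. By gene, 5 of 7 had every AAV-TKT library below every AAV-GFP library, while C1qa and C1qb overlapped. Fcer1g, Cd14 and Ptprc reached the level threshold through AAV-GFP only, with AAV-TKT means of 0.570, 0.693 and 0.814 FPKM. So did Camp, Mmp8, Elane and Mpo of the neutrophil list, Alas2 and Slc4a1 of the red cell list and Cldn19 of the Schwann cell list. For all of these genes a fall was favoured by the filter. The part of these cell types in the collagen and laminin values was not tested.

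The test of whether the effects of the 2 treatments differed covered the 25 shared members. None passed (limma over all 12 libraries, 0 of 25, against 0.00778% of 12853 genes), and 2 had an unadjusted p under 0.05, against 6.85% of all genes. Col24a1 had a log2 change of -0.76 in the AAV experiment and 0.99 in the ribose experiment, a difference of -1.75 (SE 0.575, adjusted p = 0.669). It reached the level threshold through AAV-GFP only and through Ribose only, with AAV-TKT and Vehicle means of 0.632 and 0.566 FPKM. A difference of that sign was thus favoured by the filter. Col6a2 had -0.21 and 0.66, a difference of -0.87 (SE 0.327, adjusted p = 0.687), and its Vehicle mean of 0.980 FPKM was under that threshold. For Col3a1, Col12a1 and Col1a1 the differences were -0.88, -0.88 and -1.19, with adjusted p of 0.758, 0.777 and 0.801. Lamb1, with -0.34 and -0.27, differed by -0.08 (SE 0.281), and Lamc1, with -0.21 and -0.32, by 0.11 (SE 0.445). Of the 25 genes, 13 were negative in both experiments and 9 were negative in the AAV and positive in the ribose experiment. Col5a2, at -0.00 in the AAV experiment, is in neither count. Over all genes 46.3% were negative in the AAV and 55.2% in the ribose experiment. These signs depended on single libraries. Without AAV-TKT replicate 2, 15 of 26 AAV members were negative, and without Ribose replicate 2, 9 of 28 ribose members were.

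The machinery around these chains was described from lists of pathway genes. In AAV-TKT against AAV-GFP 0 of 73 passed and 8 (11.0%) had an unadjusted p under 0.05, near the 10.6% of all genes, and in Ribose against Vehicle 0 of 84 passed and 6 (7.14%) did, against 4.79% of all genes. Of 22 tested genes for collagen folding and modification, the hydroxylases and chaperones of the endoplasmic reticulum, 16 were negative in each experiment, with medians of -0.05 and -0.06. In Ribose, Sec24d, a coat protein for the export of procollagen, measured 8.93, 8.53 and 11.5 FPKM against 7.24, 4.24 and 4.52 FPKM in Vehicle, and Plod2, the lysyl hydroxylase for fibril cross-links, measured 4.69, 2.198 and 6.28 FPKM against 1.46, 1.69 and 1.94 FPKM. Both had groups that did not overlap, with log2 changes of 0.77 (adjusted p = 0.913) and 0.92 (adjusted p = 0.9998). In AAV-TKT, Plod1 and Tmem38b had the smallest p of the list, with log2 changes of -0.20 and -0.19 (adjusted p = 0.513 and 0.531). Of the genes for processing and cross-linking, 5 of 7 were positive in AAV-TKT, among them the procollagen proteases Tll1, 0.30, and Adamts2, 0.26 (adjusted p = 0.465 and 0.485), and 4 of 8 in Ribose, led by Tgm2, 0.40, and Tll1, 0.47.

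Partners of the basement membrane were all negative in AAV-TKT, 9 of 9 with a median of -0.27, and like the chains themselves they were low in AAV-TKT replicate 2, where their score was -0.67. The peroxidasin gene Pxdn, whose product cross-links type IV collagen, had a log2 change of -0.41 (adjusted p = 0.485), and the perlecan gene Hspg2 one of -0.37 (adjusted p = 0.596). In Ribose 7 of 12 partners were negative with a median of -0.21. Smoc2 measured 4.05, 0.806 and 3.75 FPKM in Ribose and 0.820, 0.659 and 0.656 FPKM in Vehicle, again high in replicates 1 and 3. It passed the level threshold through its Ribose mean of 2.87 FPKM only, the Vehicle mean being 0.712 FPKM. Pxdn had a log2 change of -0.36.

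Receptors for these chains were negative in 8 of 12 in AAV-TKT and 9 of 14 in Ribose, with medians of -0.04 and -0.08. Itga3, an integrin alpha chain for laminin, measured 24.8, 26.8 and 25.8 FPKM in AAV-GFP and 21.6, 19.0 and 23.7 FPKM in AAV-TKT (log2 change -0.26, adjusted p = 0.415), and Ddr1, a collagen receptor kinase, had a log2 change of 0.23 (adjusted p = 0.466). In the ribose experiment Mrc2, an endocytic receptor that clears collagen, measured 0.182, 0.410 and 0.725 FPKM in Vehicle and 3.62, 1.97 and 2.02 FPKM in Ribose, without overlap (log2 change 1.28, adjusted p = 0.766). It was tested only because its Ribose mean of 2.54 FPKM lifted it over the level threshold, as its Vehicle mean was 0.439 FPKM, so that a rise was favoured by the filter. Bcam, a receptor for laminin alpha5, measured 351, 350 and 386 FPKM in Vehicle and 300, 318 and 307 FPKM in Ribose (log2 change -0.23, adjusted p = 0.9998).

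Matrix proteases and their inhibitors were negative in 7 of 10 in AAV-TKT and 7 of 13 in Ribose. Mmp9, a gelatinase stored in neutrophils, measured 1.91, 1.07 and 2.73 FPKM in AAV-GFP and 0.331, 0.346 and 0.511 FPKM in AAV-TKT (log2 change -1.02, adjusted p = 0.347), beside the neutrophil markers given above and over the level threshold through its AAV-GFP mean of 1.90 FPKM only. Mmp24 had a log2 change of 0.16 (adjusted p = 0.466). In Ribose, Ctsk and Mmp28 had -0.54 and -0.60, Ctsk with a Ribose mean of 0.621 FPKM, under the level threshold. Genes of TGF-beta signalling, a main inducer of fibrillar collagen, had medians of 0.04 over 13 and -0.01 over 15 genes. In AAV-TKT, Ltbp1, which holds latent TGF-beta in the matrix, measured 3.74, 3.19 and 5.16 FPKM in controls and 1.93, 1.66 and 1.56 FPKM in treated libraries (log2 change -0.87, adjusted p = 0.296), and Tgfbi had -0.63 (adjusted p = 0.378), both without overlap. In Ribose, Postn and Tgfbr3 had -0.78 and -0.46 (adjusted p = 0.9998 each).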

How the data were processed

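Polyadenylated RNA was sequenced after a directional library kit, per the labels' protocols. The tools bcl2fastq 2.20, FastQC and Trim Galore and the build GRCm38 are named, per the submitters' processing notes. The sources used here name no aligner and no counter. The authors deposited FPKM in 2 tables, 1 per experiment, that were normalized separately, so levels were compared within a table only. Identifiers were matched to GENCODE M21 for 13170 of 13178 and 21612 of 21650 genes. Columns named as controls in the ribose table were read as the Vehicle samples of the same number. Genes averaging 1 FPKM or more were tested with limma 3.58.1 in R 4.3.3 (eBayes with a trend) on log2(FPKM + 1), treated against control, with Benjamini-Hochberg adjustment over all genes, and changes on that scale understate those of low genes. The fit was tested on simulated data. Changes are log2 differences, with no count test since FPKM are not counts. Members, classes and lists were chosen with earlier results of these data known. Values per library are given for the 4 highest members of each class in the AAV table, the 4 of each sign with the smallest p in each comparison, and the chains of type I, IV and VI collagen and of the nerve laminins. From each pathway list the 2 smallest p are given. Alternatives changed the pseudocount, level filter, scaling, weights, prior, replicate block, transcript length trend and the libraries kept. For 1 member of the ribose table and 1 marker, values are not reported here, though both stay in the counts.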

Additional observations from a re-analysis of the deposited data

How the results depend on the processing

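No collagen or laminin passed the test under any alternative run. The median of each class stayed within the spread between libraries of its reported value. That spread includes the replicate 2 libraries that stood apart, so staying within it does not show that a median was stable. The AAV basement membrane median and the 3 ribose medians changed sign when some single libraries were left out. The ribose fibrillar median was -0.29 with a mean of at least 5 FPKM and -0.01 with quantile normalization. The counts over all genes moved more. AAV-TKT against AAV-GFP, with 2 genes past the threshold, gave 5 with a pseudocount of 0.1, 4 with a mean of at least 5 FPKM, with equal totals and with the transcript length trend removed, 8 among protein-coding genes and 23 with weights per library. Ribose against Vehicle, with 1 gene, gave 2 with a pseudocount of 0.5, with equal totals and with the length trend removed, 0 among protein-coding genes, and 6 without Vehicle replicate 2 and Ribose replicate 2 together. The difference of the effects, with 1 gene, gave 2 with a pseudocount of 0.1 and with the length trend removed, and 12 without those 2 libraries together. The cause was not tested. Leaving out single libraries gave 3 to 41 genes for AAV-TKT against AAV-GFP, with 41 without AAV-GFP replicate 2, 1 to 4 for Ribose against Vehicle and 1 to 3 for the difference. The main fit did not use replicate numbers as pairs. In the AAV experiment deviations of equal numbers correlated at 0.0326, 0.0707 and -0.0144, within the -0.104 to 0.0795 of unequal numbers. In the ribose experiment equal numbers correlated at 0.0418, 0.357 and 0.16, and unequal numbers at -0.26 to 0.145. The value of 0.357, of the replicate 2 libraries, was the highest. Whether ribose libraries of equal number shared a batch was not tested. With the replicate number as a block, the replicate block fit called 0, 1 and 1 genes in the 3 comparisons.

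The signs of the members named next were not stable. In the AAV experiment Col19a1 was at -0.01 with equal totals, Col23a1 at 0.07 with quantile normalization and 0.00 with the length trend removed, Col4a2 at 0.02 with quantile normalization and Lamb2 at 0.00 with weights per library. In the ribose experiment Lama1 was at 0.00 with a pseudocount of 0.1 and -0.06 with quantile normalization, and without both replicate 2 libraries Col16a1 was at -0.04 and Lamb2 at 0.10. With single libraries left out, the AAV log2 changes ran from -0.30 to 0.01 for Col14a1, -0.67 to 0.03 for Col16a1, -0.02 to 0.13 for Col19a1, -0.24 to 0.16 for Col23a1, -0.04 to 0.13 for Col25a1, -0.43 to 0.19 for Col4a1, -0.22 to 0.09 for Col4a2, -0.56 to 0.05 for Col5a3, -0.23 to 0.00 for Lama2 and -0.25 to 0.15 for Lamb2. The ribose log2 changes ran from -0.12 to 0.41 for Col15a1, -0.60 to 0.29 for Col1a2, -0.39 to 0.11 for Col25a1, -0.60 to 0.08 for Col4a1, -0.52 to 0.01 for Col4a2, -0.16 to 0.37 for Lama1, -0.06 to 0.70 for Lama2, -0.37 to 0.25 for Lama4, -0.30 to 0.21 for Lamb2 and -0.64 to 0.08 for Lamc1. The unknown depth of the AAV libraries and 3 libraries a group limit what the low chains can show. So does the lower depth of the Ribose than of the Vehicle libraries.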
